A study of Macaca mulatta with 30 samples.

Results

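The left and right ventrolateral prefrontal cortex (VFC) of 5 rhesus macaques were compared, using 10 of the 30 arrays of the study. The 10 arrays are those labelled VFC Left and VFC Right for individuals 1 to 5, and the quantity followed throughout is the log2 value of the left hemisphere minus that of the right hemisphere in the same animal. A positive difference is therefore a higher value on the left. The tissue was frozen post-mortem cortex of untreated animals, taken at the inferior branch of the arcuate sulcus, the macaque counterpart of area 44 within Broca's area. Animals 1, 2 and 3 were females of 7.3, 5.5 and 8.6 years, and animals 4 and 5 were males of 4.2 and 2 years. The same animals also gave superior temporal cortex near its posterior end (STC, matched by the submitters to Wernicke's area) and primary motor cortex of the forelimb (M1C), each with 10 arrays, which were used here only to set the VFC values beside them. Every region and hemisphere has 5 arrays, 1 per animal, so sex and age go with the animal. An effect of sex or age that is equal on both sides cancels in a difference within the animal. A left to right difference that depends on sex or age does not cancel, and it cannot be told apart from one between animals.

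The inferior frontal cortex of humans carries speech production, and in most people language depends more on the left hemisphere than on the right. In macaques the corresponding field around the arcuate sulcus is a premotor and prefrontal area that takes part in orofacial and hand control. Cortical tissue of this kind mixes excitatory and inhibitory neurons, astrocytes, oligodendrocytes with their myelin, microglia, blood vessels and, at the surface, meninges. Each array therefore measured the RNA of all these cells together, and fewer cells of a type cannot be told apart from less RNA per cell. The comparison asks whether any gene is read at a different level in the left and the right area.

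Most of the chosen markers of brain cells were read above the level used to select probe sets. Of the chosen markers, 6 of 8 for neurons, 3 of 4 for astrocytes, 5 of 5 for oligodendrocytes, 3 of 4 for microglia, 3 of 3 for endothelial cells and 4 of 4 for meninges and choroid plexus were above the level at which probe sets were tested. SYT1, SLC17A7, GFAP and HBA1 had no probe set with that single name, AIF1 lay below the level, and for blood HBB and ALAS2 lay below it too. The 10 VFC array medians lay between 6.58 and 6.62 on the log2 scale. Some markers lay near these medians, such as TTR of the choroid plexus at 6.08 to 7.02. A value above the level therefore does not by itself show that a cell type was present. Of 40489 probe sets, the 24292 with a mean above the 40th percentile (6.04, all 30 arrays used) were tested, and 11443 gene symbols were among them.

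The left VFC array of animal 4 stood apart from its label. Probe set 13826860, which has no gene name here, read 11.2 to 11.7 in the 12 arrays of the females 1 and 2 and 4.60 to 5.70 in the 6 arrays of the male animal 5. In animal 4, also male, it read 5.70 in the right VFC but 10.6 in the left. EIF1AY, a translation initiation factor gene whose value separated the labelled sexes, read 8.29 in the left VFC and 8.57 in the right VFC of animal 4, against 6.83 to 7.70 in animals 1 and 2 and 8.30 to 8.53 in animal 5. The left VFC of animal 4 thus read near the females for the first and near the males for the second. Over the tested probe sets its deviations from the group mean correlated at 0.200 on average with the other arrays of animal 4 and at 0.127 with those of animal 3. The right VFC of animal 4 gave 0.190 and 0.038 in the same way, so the value of 0.200 does not set the left array apart. With each other, however, the left and right VFC of animal 4 correlated at only 0.159. That value was 0.446, 0.350, 0.430 and 0.447 in animals 1, 2, 3 and 5. It does not say which array of the pair differs. The left and right VFC of animal 3 correlated at 0.114 and 0.094 with animal 4. The left VFC of animal 4 still lay nearest to the VFC among the regions (0.07, against -0.003 for STC and -0.06 for M1C). The counts are given with and without animal 4, and the value without animal 4 follows a gene or list wherever it turned the sign or moved the value by over 1.5 times.

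No probe set passed the test of left against right VFC. At a limma adjusted p of 0.05, 0 of the 24292 probe sets passed (0%), and the smallest adjusted p was 0.138. At an unadjusted p of 0.05, 952 probe sets (3.92%) passed, of which 525 (2.16%) were higher and 427 (1.76%) lower on the left. A uniform distribution of p-values would place 1215 probe sets there. Among these 952, 333 had a single gene name, which is 35.0% against 48.3% of all tested probe sets. Without animal 4, 0 probe sets passed the adjusted threshold and 744 (3.06%) the unadjusted one, 427 of them the same probe sets.

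The differences were bounded within a narrow range for most genes. The median 95% interval reached 0.17 on the log2 scale (1.12-fold) to either side of the estimate, and the 90th percentile of that reach was 0.27. For 23657 probe sets (97.4%) the interval lay wholly within 1.5-fold, and for 24239 (99.8%) within 2-fold. No mean difference over the 5 animals reached 2-fold, 28 reached 1.5-fold and 555 reached 1.2-fold. These intervals are not adjusted for the number of probe sets, and none of the 28 probe sets at 1.5-fold or more passed the adjusted threshold.

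The difference between hemispheres was smaller than that between animals. The standard deviation of the left minus right difference over the tested probe sets was 0.216, 0.253, 0.182, 0.259 and 0.218 in animals 1 to 5. Between animals, within 1 hemisphere, the same measure ran from 0.237 to 0.347 over 20 pairs, with a median of 0.290. Between VFC and M1C of the same animal and hemisphere its median was 0.268, and between VFC and STC 0.237, against 0.218 between the left and right VFC. Of the variance of a probe set over the 10 arrays, hemisphere took a median of 3.55% (jackknife SE 1.38), animal 60.4% (SE 4.10) and the remainder 31.0% (SE 2.37). These shares rest on unequal degrees of freedom, so their sizes cannot be compared directly. Hemisphere has 1 (11.1% of the total), and animal and remainder have 4 each (44.4% each). Without animal 4 the shares were 3.997%, 61.9% and 27.9%.

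The left to right profiles of the 5 animals were little alike. Across probe sets, the left minus right differences of any 2 animals correlated between -0.15 and 0.08, a description over probe sets that share their arrays. The same direction in 5 of 5 animals was seen for 1189 probe sets (4.89%), 556 higher and 633 lower on the left. By gene, taking the brightest probe set, 229 (2%) were higher and 356 (3.11%) lower on the left in 5 of 5 animals. The 5 left values and the 5 right values did not overlap for 61 probe sets (0.251%), 31 of them higher and 30 lower on the left.

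The 24 genes described next are the 12 higher and the 12 lower on the left with the smallest p among those with 1 direction in 5 of 5 animals. They were picked by their values, so their common direction is the rule and no result. Their differences ranged in size from 0.19 to 0.46 (1.14-fold to 1.37-fold), the limma adjusted p was 0.998 for each, and none passed the test. The left and right values did not overlap for 9 of the 24, 4 higher and 5 lower on the left. Over all tested probe sets the share was 0.251% (61 of 24292). A choice by small p and common direction favours genes without overlap. The raised share is therefore built in, and nothing is read from it here or for the single genes below.

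**Figure D1:**
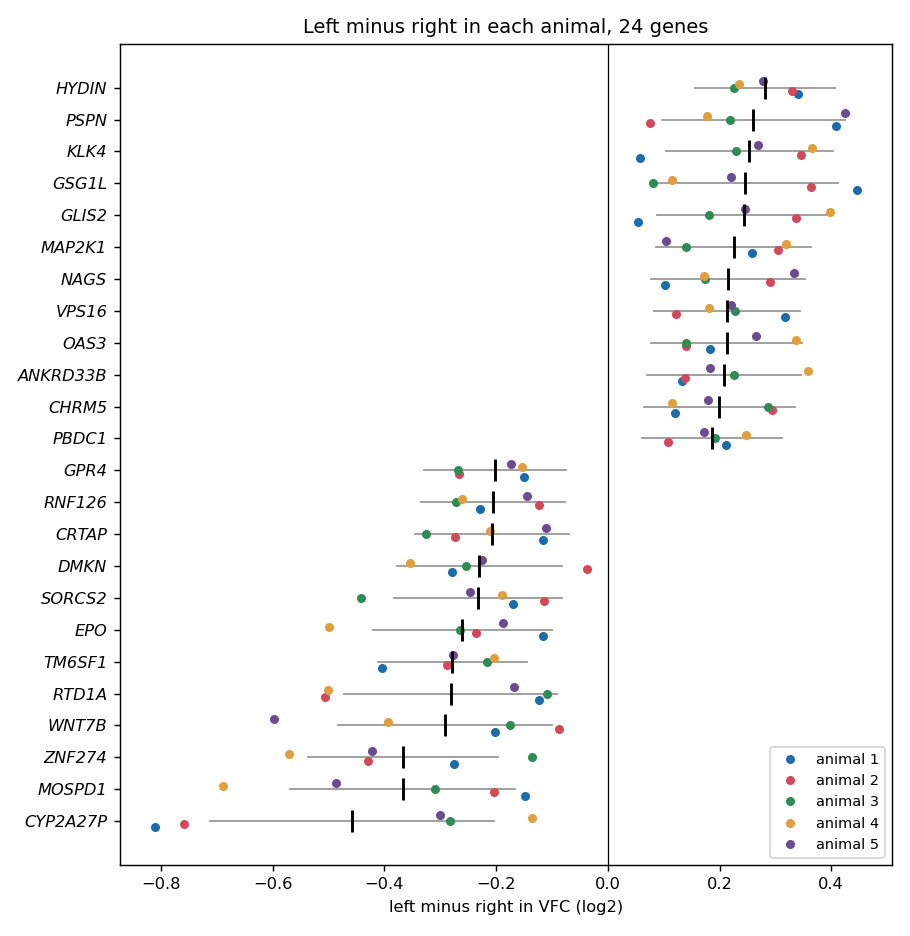
Left minus right difference in VFC (x axis, log2) for 24 genes (y axis), with 1 point per animal, a black tick for the mean of 5 animals and a grey line for its 95% interval. Each gene has its 5 points on 1 side of 0 by the rule of choice, with means from 0.28 for HYDIN to -0.46 for CYP2A27P and a limma adjusted p of 0.998 for each.

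HYDIN, which encodes a protein of the central apparatus of motile cilia, had the smallest p among the genes higher on the left. It read 6.28, 6.19, 6.19, 6.23 and 6.37 in the left VFC of animals 1 to 5 and 5.93, 5.86, 5.96, 6.00 and 6.09 in the right VFC. All 5 left values lay above all 5 right values, a difference of 0.28 ± 0.054 (SE of limma, n = 5) with a 95% interval from 0.16 to 0.41 and an adjusted p of 0.998. Its right mean of 5.97 ± 0.084 (SD, n = 5) was under the level of the filter. Without animal 4 the difference was 0.29.

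VPS16 encodes a core subunit of the complexes that tether late endosomes and lysosomes. It read 8.04, 7.99, 8.07, 8.01 and 8.04 on the left and 7.73, 7.87, 7.84, 7.82 and 7.82 on the right. The groups did not overlap, and the difference was 0.21 ± 0.056 (adjusted p = 0.998). MAP2K1, the kinase that phosphorylates ERK in the growth factor cascade, read 10.37, 10.40, 10.32, 10.22 and 10.20 on the left and 10.11, 10.10, 10.18, 9.90 and 10.10 on the right. Here too the lowest left value stood above the highest right value, with a difference of 0.23 ± 0.06 (adjusted p = 0.998). ANKRD33B was the other gene without overlap, at 7.46, 7.50, 7.67, 7.54 and 7.50 on the left and 7.33, 7.36, 7.44, 7.18 and 7.32 on the right. Its difference was 0.21 ± 0.059.

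Among the other genes of the higher group, GSG1L, an auxiliary subunit of AMPA receptors, differed by 0.25 ± 0.072, and CHRM5, a muscarinic acetylcholine receptor, by 0.20 ± 0.059. PSPN, the neurotrophic factor persephin of the GDNF family, differed by 0.26 ± 0.071. The left and right values overlapped for each of these genes, and the right mean of CHRM5, 6.01, was under the level of the filter. The remaining 5 were KLK4, a secreted serine protease (0.25 ± 0.065), OAS3, an interferon-induced oligoadenylate synthetase (0.21 ± 0.058), GLIS2, a zinc finger transcription factor (0.24 ± 0.067), NAGS, the mitochondrial enzyme that makes the activator of the urea cycle (0.22 ± 0.06), and PBDC1 (0.19 ± 0.054).

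ZNF274, a zinc finger repressor that recruits a histone methyltransferase, had the smallest p among the genes lower on the left. It read 6.50, 6.32, 6.48, 6.03 and 6.33 on the left and 6.77, 6.75, 6.62, 6.603 and 6.75 on the right. The groups did not overlap, although the highest left value, in animal 1, came close to the lowest right value. The difference was -0.37 ± 0.074 with a 95% interval from -0.54 to -0.20 (limma adjusted p = 0.998). It was -0.32 without animal 4, whose own difference of -0.57 was the widest of the 5.

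GPR4, a proton-sensing receptor known from blood vessels, read 6.81, 6.59, 6.75, 6.75 and 6.78 on the left and 6.96, 6.85, 7.01, 6.91 and 6.95 on the right. All left values lay below all right values, by -0.20 ± 0.055 on average. CRTAP, which takes part in the hydroxylation of collagen, read 7.70, 7.80, 7.71, 7.76 and 7.80 on the left and 7.82, 8.07, 8.04, 7.97 and 7.91 on the right. Its groups also did not overlap (-0.21 ± 0.06). SORCS2, a sorting receptor that binds pro-neurotrophins, read 6.93, 7.08, 6.88, 7.03 and 6.86 on the left and 7.10, 7.19, 7.32, 7.22 and 7.11 on the right. Only a narrow gap separated its groups, and the difference was -0.23 ± 0.065. DMKN, a secreted protein first described in skin, was the last gene without overlap, with a difference of -0.23 ± 0.064.

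**Figure D2:**
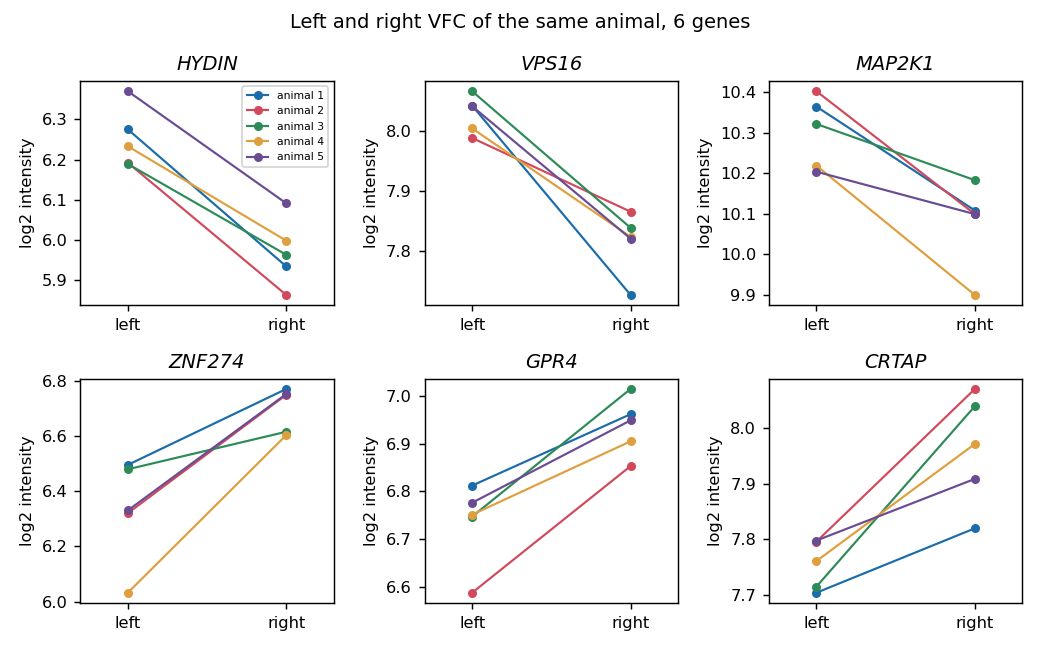
Log2 intensity (y axis, a separate range for each panel that does not start at 0) of 6 genes in the left and right VFC (x axis), with 1 line per animal. The left values lay above the right values in all 5 animals for HYDIN, VPS16 and MAP2K1 and below them for ZNF274, GPR4 and CRTAP, with no overlap between the sides. The genes were picked by small p and common direction, which favours such a separation.

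The remaining genes lower on the left overlapped between the sides. WNT7B, a Wnt ligand, differed by -0.29 ± 0.083, EPO, the hormone erythropoietin, by -0.26 ± 0.069, and RNF126, a ubiquitin ligase, by -0.21 ± 0.056. RTD1A, a macaque theta-defensin precursor, differed by -0.28 ± 0.083, TM6SF1 by -0.28 ± 0.058 and MOSPD1 by -0.37 ± 0.087. CYP2A27P read 6.17, 5.95, 6.24, 6.15 and 6.41 on the left and 6.98, 6.71, 6.52, 6.29 and 6.71 on the right. Its difference of -0.46 ± 0.11 was the widest of the 24, and animals 1 and 2 gave the widest gaps. Without animal 4 the 24 genes had unadjusted p-values between 0.00199 and 0.0346 in limma, with an adjusted p of 1.00 for each.

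In the other regions the direction of these genes was mixed. The mean left minus right difference had the sign of VFC for 15 of the 24 genes in STC, for 12 in M1C and for 8 in both. HYDIN differed by -0.01 in STC and -0.09 in M1C, VPS16 by -0.01 and -0.02, and ZNF274 by -0.10 and 0.05. These counts and values include 2 doubtful arrays, the right STC of animal 4 and the left M1C of animal 3. Without animal 4 in STC and animal 3 in M1C, VPS16 turned sign in both regions, to 0.02 and 0.03. HYDIN was then at -0.04 and -0.13, and ZNF274 at -0.17 and 0.08. Of the 24 genes, 13 had an unadjusted p under 0.05 when the VFC difference was set against the mean of the STC and M1C differences, with a smallest adjusted p of 0.994. That contrast contains the VFC difference by which the genes were picked, so a raised count is built in and nothing is read from it.

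Over all probe sets, 0 (0%) departed from the other regions at an adjusted p of 0.05 (smallest 0.270 in limma), and 950 (3.91%) had an unadjusted p under 0.05. Without the right STC array of animal 4 and the left M1C array of animal 3, which lay nearer to another region than to their own, the counts were 0 and 724. E2F5, a transcription factor of the cell cycle, came first by p among named genes, with -0.23 ± 0.083 in VFC, 0.31 in STC and 0.29 in M1C (adjusted p = 0.994). DKK2, a secreted modulator of Wnt signalling, differed by 0.19 ± 0.064 in VFC, -0.24 in STC and -0.16 in M1C. ZNF382, a zinc finger repressor, read 9.05, 9.21, 9.21, 9.09 and 8.97 in the left VFC and 9.24, 9.47, 9.31, 9.23 and 9.22 in the right VFC. Those groups did not overlap, and the difference was -0.19 ± 0.056 in VFC against 0.16 in STC and 0.12 in M1C. None of the 3 passed the test. Their STC and M1C values include the right STC array of animal 4 and the left M1C array of animal 3.

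The probe set with the smallest p of all has no gene name here. Probe set 13577747 read 7.19, 7.19, 6.69, 6.59 and 7.26 in the left VFC and 6.25, 6.20, 6.04, 5.70 and 6.67 in the right VFC. The left was higher in 5 of 5 animals, while the groups overlapped, since the right value of animal 5 lay above the left value of animal 4. The difference was 0.81 ± 0.076 (1.75-fold), with an adjusted p of 0.138 and an exact sign-flip p of 0.0625, which is the smallest that 5 animals allow. Without animal 4 it was 0.79, with an adjusted p of 1.00. In STC the difference was 0.39 ± 0.27, with animal 5 at -1.06. In M1C it was 0.35 ± 0.34, with animal 2 at -0.22 and animal 4 at -1.17. The STC mean includes the doubtful right STC array of animal 4, whose difference of 1.12 was the highest in STC. The M1C mean includes the doubtful left M1C array of animal 3, with a difference of 0.68. The next probe sets, 13575423 (-0.53 ± 0.067, adjusted p = 0.564) and 13594888 (-0.56 ± 0.078, adjusted p = 0.809), are also unnamed.

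The named genes with the largest mean differences varied widely between animals. SFRP2, a secreted inhibitor of Wnt signalling, read 7.998, 6.30, 7.71, 7.72 and 8.61 on the left and 9.16, 8.003, 8.398, 7.87 and 8.12 on the right. The left was lower in animals 1 to 4 and higher in animal 5, with a mean of -0.64 ± 0.28 (adjusted p = 0.998). MET, the receptor of hepatocyte growth factor, read 6.52, 8.40, 6.29, 8.43 and 6.40 on the left and 6.49, 6.44, 6.37, 7.18 and 6.79 on the right. Its left values were high in animals 2 and 4 alone, and the mean difference was 0.56 ± 0.32, 0.38 without animal 4 and -0.15 without animals 2 and 4.

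SEMA3E, an axon guidance ligand of deep-layer neurons, differed by 0.43 ± 0.19, with 1.26 in animal 2 and -0.24 in animal 1. MOBP, a myelin protein, differed by 0.41 ± 0.20, with 1.27 in animal 4 and 0.74 in animal 5, and by 0.20 without animal 4. CLIC6, a chloride channel protein of the choroid plexus, was lower on the left in 5 of 5 animals (-0.54 ± 0.19), and its differences ran from -0.02 in animal 1 to -1.48 in animal 2. CYP2A27P, described above, was the remaining gene of this kind.

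Gene lists for cell types, layers and cell functions were described by their medians over the measured members. The median of all 11443 genes was -0.0053 (-0.0087 without animal 4), and by gene 141 (1.23%) were higher and 181 (1.58%) lower on the left at an unadjusted p under 0.05. No member of any list passed the adjusted threshold. Of the 30 lists with at least 3 measured genes, the median farthest from 0 was 0.17. The lists of inhibitory interneurons, postsynaptic scaffold and cytosolic ribosomal proteins had a median below 0 in 5 of 5 animals. No list had a median above 0 in 5 of 5. Some of these medians were close to 0, such as -0.0047 for interneurons in animal 3 and -0.0039 for ribosomal proteins in animal 4. The all-gene median was itself below 0 in animals 1, 3 and 5. The lists share the same arrays, so the number that would keep 1 direction by chance is not known.

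**Figure D3:**
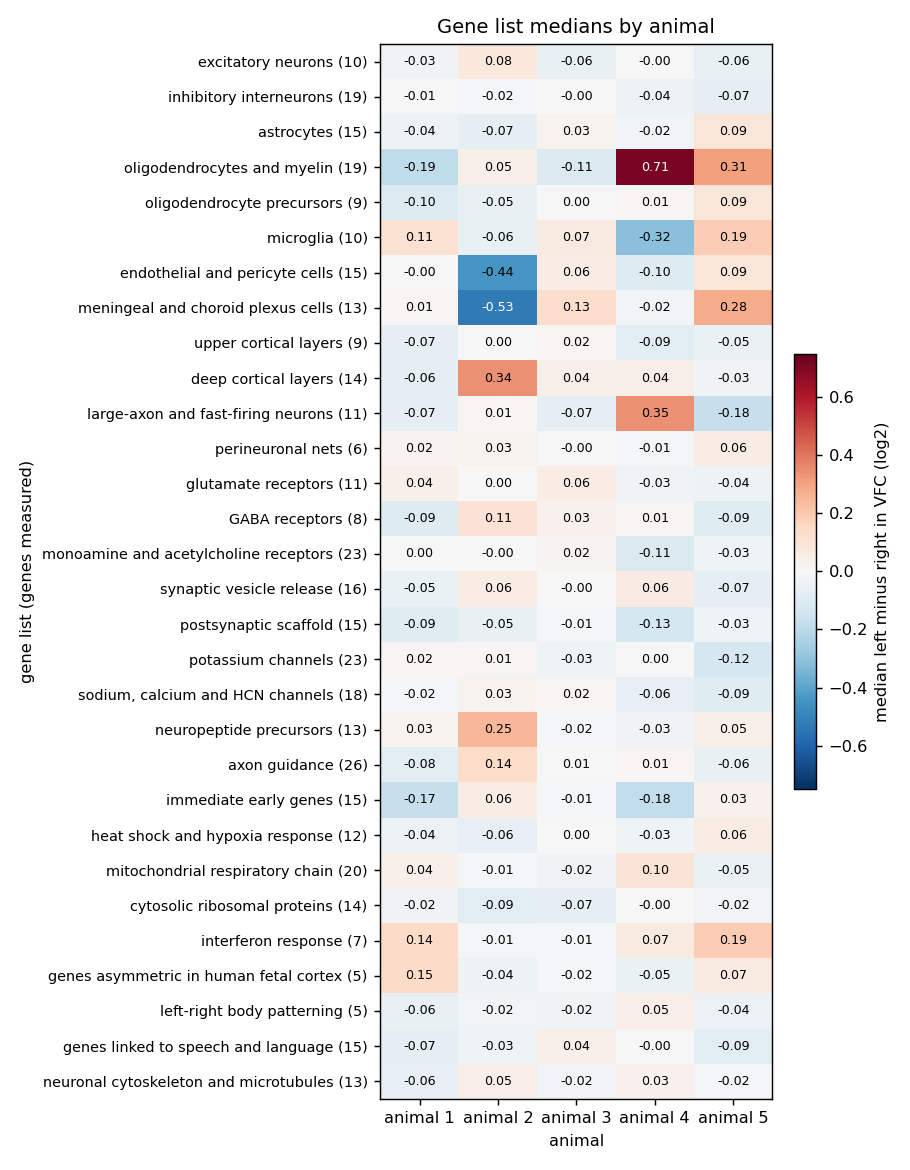
Median left minus right difference in VFC (colour and printed value, log2) of 30 gene lists (y axis, with the number of measured genes) in each of 5 animals (x axis). The medians were near 0 in most cells of the map, with 0.71 for oligodendrocytes and myelin in animal 4 and -0.53 for meningeal and choroid plexus cells in animal 2 at the ends of the scale.

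The neuronal lists had medians near 0. The 10 measured genes of excitatory neurons had a median of -0.01 and the 19 of inhibitory interneurons -0.02, with 1 member of each list higher at an unadjusted p under 0.05. The excitatory median was -0.03 without animal 4, and 2 interneuron genes were then under that threshold. NPTX1, a pentraxin that clusters AMPA receptors, read 9.29, 9.21, 9.27, 9.18 and 9.31 on the left and 9.18, 8.84, 9.13, 8.90 and 9.15 on the right. The left was higher in 5 of 5 animals (0.21 ± 0.062), and of the right values only the one of animal 1 reached the left range. NPY, the neuropeptide Y of interneurons, read 10.09, 10.51, 10.12, 9.85 and 10.32 on the left and 9.82, 10.15, 9.97, 9.82 and 9.997 on the right. It was also higher on the left in 5 of 5 animals (0.22 ± 0.067), with overlap. CCK, another peptide gene of the interneuron list, differed by -0.13 ± 0.061, lower in 5 of 5.

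Upper-layer genes had a median of -0.04 over 9 genes and deep-layer genes 0.08 over 14. The deep-layer median was 0.34 in animal 2, where 13 of the 14 genes were higher on the left, and between -0.06 and 0.04 in the other animals. CBLN2, a secreted synapse organizer, read 8.87, 8.35, 8.92, 8.83 and 8.93 on the left and 8.94, 9.11, 9.04, 9.07 and 8.99 on the right. The groups did not overlap, but animal 2 alone contributed -0.76 and the mean was -0.25 ± 0.11. LHX2, a transcription factor, differed by -0.13 ± 0.074, and SULF1, a sulfatase of the cell surface, by 0.16 ± 0.069. Without animal 4, LHX2 was at -0.07 and CBLN2 was no longer under an unadjusted p of 0.05. The 11 genes of large-axon and fast-firing neurons had a median of 0.0093, with SPP1 at 0.20 ± 0.15 and KCNA2 at -0.10 ± 0.11. Their median was 0.35 in animal 4, and without that animal it was -0.07, with SPP1 at 0.03 and KCNA2 at -0.21.

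Receptors for transmitters showed no list that stood to 1 side. The medians were 0.02 for 11 glutamate receptor genes, -0.0085 for 8 GABA receptor genes and -0.03 for 23 monoamine and acetylcholine receptor genes. GRM2, a presynaptic glutamate receptor, differed by -0.10 ± 0.061 and GRIA1, an AMPA receptor subunit, by 0.10 ± 0.077. Among GABA receptor subunits GABRG1 differed by 0.13 ± 0.084 and GABRE by 0.14 ± 0.12. CHRM4, an inhibitory muscarinic receptor, gave -0.26 ± 0.091 and CHRNA7, a nicotinic subunit, 0.12 ± 0.064. The GABA receptor median was 0.04 and the monoamine and acetylcholine receptor median -0.01 without animal 4. GRM2 was then at -0.06, GRIA1 at 0.15, GABRG1 at 0.06 and GABRE at 0.06.

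Synapse and channel genes were close to 0 as well. The medians were 0.0088 for 16 genes of vesicle release, -0.04 for 15 of the postsynaptic scaffold, -0.03 for 23 potassium channels and -0.0070 for 18 sodium, calcium and HCN channels. STX1A, a SNARE protein, was higher on the left in 5 of 5 animals (0.12 ± 0.06) and DLGAP4, a scaffold protein, lower in 5 of 5 (-0.13 ± 0.068). CPLX2, a complexin, differed by 0.11 ± 0.12 and SHANK2 by -0.09 ± 0.066. Of the channels, KCNK6 gave -0.29 ± 0.095, HCN4, a pacemaker channel, -0.21 ± 0.073, and KCNB2 and CACNB2 -0.13 each (SE 0.06 and 0.08). Without animal 4 the medians of vesicle release, scaffold and sodium, calcium and HCN channel genes were -0.02, -0.02 and -0.03. CPLX2 was then at -0.0063, SHANK2 at -0.06 and CACNB2 at -0.08, and neither KCNK6 nor HCN4 was under an unadjusted p of 0.05.

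Matrix, peptide and wiring genes were no different. The 6 genes of perineuronal nets had a median of 0.03, 13 neuropeptide precursors 0.06, 26 axon guidance genes -0.0030 and 13 genes of the neuronal cytoskeleton 0.0039. HAS3, a hyaluronan synthase, read 6.78, 6.77, 6.71, 6.84 and 6.86 on the left and 6.53, 6.61, 6.68, 6.59 and 6.59 on the right. It had no overlap between the sides (0.19 ± 0.061), whereas the net proteoglycan ACAN differed by 0.08 ± 0.076. NTNG1, a netrin relative, gave -0.22 ± 0.073, STMN2, a regulator of microtubules, -0.05 ± 0.057 and SPTAN1, a spectrin, 0.04 ± 0.053. With animal 4 left out, the medians were 0.05 for perineuronal nets, -0.03 for axon guidance and -0.01 for the cytoskeleton.

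Lists for cell state were also near 0. Immediate early genes, which follow neuronal activity, had a median of -0.07 over 15 genes, with NR4A1 lower on the left in 5 of 5 animals (-0.14 ± 0.058) and EGR2 at 0.13 ± 0.061. Heat shock and hypoxia genes had a median of -0.0029 over 12 genes (HSPB1 -0.16 ± 0.084, HMOX1 -0.13 ± 0.07). The respiratory chain gave 0.02 over 20 genes (NDUFA1 0.13 ± 0.093, CYC1 0.09 ± 0.062). Of 14 cytosolic ribosomal protein genes 2 were higher on the left, against 5335 of all 11443 genes. Their median was -0.03 (RPL31 -0.26 ± 0.1, RPS2 -0.10 ± 0.059). The 7 interferon response genes had a median of 0.07, led by OAS3, with IFIT2 at 0.10 ± 0.068. Without animal 4 the medians were -0.03 for immediate early genes, -0.00028 for heat shock and hypoxia, -0.0048 for the respiratory chain and -0.06 for ribosomal proteins. HSPB1 was then at -0.10 and NDUFA1 at 0.09.

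Genes known for asymmetry or for language did not stand out. The list of fetal asymmetry genes, drawn from work on human cortex, had 5 of 10 members measured and a median of 0.05. LMO4, a transcription cofactor reported as asymmetric in human fetal cortex, differed by -0.04 ± 0.076, LMO1 by 0.12 ± 0.12 and NEUROD6, a transcription factor of excitatory neurons, by -0.13 ± 0.081. Left-right body patterning genes had 5 of 18 measured and a median of -0.04 (PKD2, a cation channel of cilia, 0.08 ± 0.066, and BMP4, a growth factor, -0.08 ± 0.076). The fetal list without animal 4 had a median of -0.0040 and the body patterning list -0.02, with LMO1 at -0.0040, NEUROD6 at -0.04, PKD2 at 0.03 and BMP4 at -0.14.

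The 15 measured genes linked to speech and language had a median of -0.02, and 0 of the 15 had an unadjusted p under 0.05. FOXP2, the transcription factor mutated in a familial speech disorder, differed by -0.06 ± 0.13 (-0.14 without animal 4), and CNTNAP2, a cell adhesion gene that FOXP2 binds in human cells, by -0.08 ± 0.068. PCSK6, a protease gene associated with handedness in humans, gave -0.12 ± 0.06 and SRPX2 -0.07 ± 0.056, lower in 5 of 5 animals.

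SYT10, a synaptotagmin that senses calcium, read 6.98, 7.44, 6.82, 6.52 and 7.17 on the left and 6.67, 7.06, 6.61, 7.11 and 6.97 on the right. The left was higher in 4 animals and lower in animal 4, whose difference was -0.59. Its mean was 0.10 ± 0.14 with all animals and 0.27 without animal 4, with an adjusted p of 0.998 and 1.00 in limma.

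The left to right difference of oligodendrocyte genes was not the same in each animal. Of 19 measured genes of oligodendrocytes and myelin 17 were higher on the left by their mean, against 5335 of all 11443 genes. The list median was 0.17, and it was -0.01 without animal 4. The list median in animals 1 to 5 was -0.19, 0.05, -0.11, 0.71 and 0.31, and the number of the 19 genes higher on the left was 1, 12, 4, 18 and 16. MBP, the myelin basic protein, read 12.52, 11.21, 12.47, 12.38 and 12.23 on the left and 12.58, 11.16, 12.50, 11.68 and 11.91 on the right. Animals 4 and 5 alone had clearly more on the left. They were the males and the youngest animals. A side difference that depends on sex or age cannot be told apart here from one between animals. KLK6, a protease of oligodendrocytes, differed by 0.21 ± 0.086 and HAPLN2, a matrix protein of nodes of Ranvier, by 0.24 ± 0.11, or 0.13 without animal 4.

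The summed linear level of the 19 oligodendrocyte genes was 13243 in the left and 7641 in the right VFC of animal 4, the array that looked mixed. Both VFC arrays of animal 1 (13753 and 15223) and of animal 3 (13943 and 14577) lay near the left value of animal 4. Both arrays of animal 2 (6607 and 6210) and the right array of animal 5 (8254) lay low, and the left array of animal 5 lay between (10399). The part of the left array of animal 4 in the oligodendrocyte values of that animal was not tested. Oligodendrocyte precursors, 9 genes, had a median of 0.02 (CSPG4 0.08 ± 0.071, OLIG1 -0.06 ± 0.088 and -0.04 without animal 4).

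**Figure D4:**
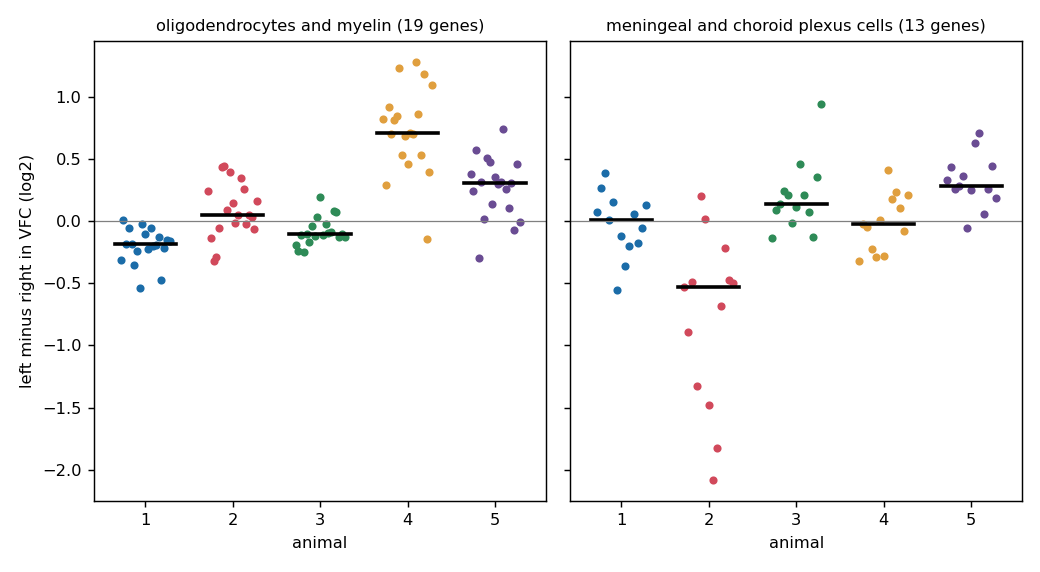
Left minus right difference in VFC (y axis, log2) of each measured member of the oligodendrocyte and myelin list (19 genes) and the meningeal and choroid plexus list (13 genes) in 5 animals (x axis), with 1 point per gene and a black bar at the median. The oligodendrocyte median was 0.71 in animal 4 and -0.19 in animal 1, and the meningeal median was -0.53 in animal 2 and 0.28 in animal 5.

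Meningeal genes set animal 2 apart. The 13 measured genes of meninges and choroid plexus had a median of -0.05, with -0.53 in animal 2 and 0.28 in animal 5. Their summed linear level was 1948 in the left and 4224 in the right VFC of animal 2, while the other animals lay at 2279 to 3109 on the left and 2164 to 2696 on the right. The sum of animal 2 was therefore the lowest of the 10 arrays on the left and the highest on the right. LUM, a collagen-binding proteoglycan of fibroblasts, read 6.28, 7.19, 7.17, 7.52 and 7.08 on the left and 6.40, 8.67, 7.06, 7.80 and 6.83 on the right. Animal 2 alone gave -1.48, and the mean was -0.31 ± 0.22. FOLR1, a folate receptor of the choroid plexus, differed by 0.13 ± 0.093, and by 0.23 without animal 4.

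The vessel list went the same way in animal 2. The 15 endothelial and pericyte genes had a median of -0.08, with -0.44 in animal 2, where 13 of 15 were lower on the left. CLDN5, the tight junction protein of the blood-brain barrier, differed by 0.15 ± 0.069 and ABCB1, its efflux pump, by -0.13 ± 0.065. Without animals 2 and 4, a choice made after seeing the data, the medians were 0.24 for the meningeal list, 0.07 for the endothelial list and 0.00018 for the oligodendrocyte list.

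Other glia varied less. The 15 astrocyte genes had a median of -0.00050, with 2 higher on the left at an unadjusted p under 0.05. These were AGT, angiotensinogen (0.30 ± 0.12, higher in 3 of 5 animals), and AQP4, the water channel of astrocyte endfeet (0.15 ± 0.063, higher in 4 of 5). With animal 4 left out, the median was 0.02, and 0 astrocyte genes were higher at that threshold (unadjusted p = 0.139 for AGT and 0.0992 for AQP4 in limma). The 10 microglial genes had a median of -0.03, with -0.32 in animal 4 and 0.19 in animal 5. CD68, a lysosomal protein of phagocytes, gave -0.23 ± 0.14 and TYROBP, an immune adaptor, -0.15 ± 0.093. The microglial median was 0.04 and TYROBP was at -0.08 without animal 4. For blood 1 of 9 genes was measured, S100A9, a protein of neutrophils, at 0.04 ± 0.091, and at 0.06 without animal 4.

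Differences of 2-fold or more occurred within single animals. The number of probe sets that reached it was 75, 139, 42, 155 and 62 in animals 1 to 5, of which a small part had names. By gene, the count was 2 in animal 1, 28 in animal 2, 9 in animal 4 and 0 in animals 3 and 5. The genes named here were chosen after their values were seen.

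In animal 2, 24 of the 28 genes were lower on the left, and its higher array was the highest of the 10 VFC arrays for 19 of the 28. OGN, a matrix protein of meningeal fibroblasts, read 8.24 on the left and 10.32 on the right of animal 2, against 8.42 to 9.70 on the left and 8.63 to 9.24 on the right of the others. SLC13A4, a sulfate transporter of the leptomeninges, read 7.35 on the left and 9.17 on the right, a difference of -1.82. C7 of the complement system (-1.95), the small proteoglycan DCN (-1.33), the transcription factor ZIC1 (-1.42) and fibronectin FN1 (-1.21) followed. OGN, SLC13A4 and DCN belong to the meningeal list, so the meningeal sum of this animal, given above, holds their values and is not separate from them.

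The 4 genes higher on the left in animal 2 were MET (1.96), NR4A2 (1.66), SEMA3E (1.26) and TAF11 (1.11). NR4A2, a nuclear receptor found in deep-layer and claustral neurons, read 8.55 on the left and 6.89 on the right of animal 2, while the other right values lay between 8.14 and 8.60. It was thus the right array of animal 2 that read low. CTXN3, a cortexin, was lower on the left in 5 of 5 animals, by -1.07 in animal 2 and by -0.07 to -0.39 in the others (mean -0.35 ± 0.14, adjusted p = 0.998).

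In animal 4, 8 of the 9 genes were higher on the left. They were the myelin genes MOBP (1.27), ERMN (1.23), OPALIN (1.18) and UGT8 (1.09), with ITGA2 (1.47), TMEM144 (1.42), MET (1.26) and TACR3 (1.10). ITGA2, an integrin subunit, read 7.37 on the left and 5.90 on the right of animal 4, against 5.91 to 7.42 in the 8 arrays of the other animals. FREM3, an extracellular matrix protein of upper-layer neurons, was the gene lower on the left (-1.11), at 8.27 against 9.38. In animal 1 the pair of genes were SFRP2 (-1.17) and CD53, a leukocyte membrane protein (-1.01), both lower on the left.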

How the data were processed

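RNA of frozen macaque cortex was measured on 30 Affymetrix arrays, and 10 VFC arrays were compared as 5 pairs of left and right from the same animal. The authors' deposited table is in log2 units and was made by RMA in the oligo package, per the submitters' processing notes. Their versions and the genome build are not given in the sources used here, so no coordinates are printed. Arrays have no read depth, and precision rests on the number of animals.

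The platform annotation named 16020 probe sets by a single symbol and 490 by several, and left 23979 out. An identifier stood beside 15045 of the single names; the reference held 14947 of these and changed 0 symbols. Of the tested probe sets 2037 repeated the values of an earlier one to 9 decimals. Columns of other samples that were not used numbered 0.

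The test was limma 3.58.1 in R 4.3.3 (an intercept on the 5 differences within animals, with eBayes, 4 residual and 3.97 prior degrees of freedom), two-sided, with Benjamini-Hochberg adjustment over 24292 probe sets and a threshold of 0.05. Data were read with data.table, version 1.17.8. Errors beside differences are moderated standard errors. The script was checked on simulated data. Pairing comes from the individual number in the labels. Deviations of left and right VFC of the same animal correlated between 0.159 and 0.447, those of other animals between -0.293 and 0.051. Nothing says that a hemisphere was sampled more than once.

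Named genes were the 12 with the smallest p in each direction among those with the same direction in 5 of 5 animals, the 3 with the largest difference in each direction, the 2 members with the smallest p of each list, LMO4, NEUROD6, FOXP2, CNTNAP2, SYT10 and EIF1AY, the probe set with the smallest p, and the 3 genes with the smallest p against the other regions. A gene was represented by its brightest probe set. The members, the 31 gene lists and the tests were chosen with earlier results of these data known. Alternatives changed the animals, pairing, spread, moderation, array weights, normalization, filter and probe set choice.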

Additional observations from a re-analysis of the deposited data

Results flagged for a closer look

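Single animals stood apart from the other 4 in 7 of 173 groups of 5 values. The rule would mark about 1 in 20 independent groups that had not been picked. Many groups here belong to genes picked by p or by agreement of 5 animals, and all share the same arrays. The rate by chance is therefore not known, and none of the 7 is set apart from chance by its flag. Animal 2 gave the lone value for CBLN2 (left minus right -0.76, against -0.23 to -0.07 in the others), for the deep-layer list median (0.34, against -0.06 to 0.04) and for the neuropeptide list median (0.25, against -0.03 to 0.05). In the left VFC of animal 2, GPR4 read 6.59, against 6.75 to 6.81 in the other left arrays. The summed meningeal level of animal 2, 1948 on the left and 4224 on the right, moved with these values, and its part in them was not tested.

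Animal 4 gave the lone value for SYT10 (left minus right -0.59, against 0.19 to 0.38 in the others). The left array of that pair is the one that looked mixed, and its part in the SYT10 value was not tested. Animal 5 gave it for ACAN (0.39, against -0.01 to 0.03) and for the left level of RTD1A (6.37, against 5.96 to 6.06).

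GPR4 was lower on the left in 5 of 5 animals in VFC (-0.20) and higher on the left in 5 of 5 animals in STC (0.25, or 0.31 without animal 4, whose right STC array lay nearer to M1C). This difference between VFC and STC alone was not tested. GPR4 was the only gene flagged when every named gene was scanned in STC and M1C for the opposite direction in 5 of 5 animals. It had been picked for its common direction in VFC. The rate of such flags by chance is not known, so the flag does not set GPR4 apart from chance. Against the mean of STC and M1C, the VFC difference of GPR4 was -0.34 ± 0.092, with a limma adjusted p of 0.994.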

How the results depend on the processing

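The number of probe sets past the adjusted threshold was 0 under all 18 alternatives, with a smallest adjusted p of 0.0688 where 15 differences of the 3 regions shared the spread. The unadjusted count of 952 became 477 with no replicate block, that is, left and right as unpaired groups. It became 1780 without a filter, 581 with a filter at the 60th percentile and 427 with 1 probe set per gene. It ranged from 744 to 1239 when each animal was left out in turn. These last alternatives change the number of probe sets tested or the samples. The block of animal changed no other call. Against the other regions, the unadjusted count of 950 became 1624 without a filter and 548 without the 2 arrays and animal 4, and ranged from 582 (without animal 4) to 1850 (without animal 5). It was 1435 without animal 2. The cause was not tested.

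Of the 416 values of the 24 genes over the 18 alternatives, 0 passed the adjusted threshold (adjusted p from 0.390 to 1.00). Their direction is fixed by the choice of genes and shows no stability. Of the values of all named genes, 18 turned sign and 1609 did not. Without animals 2 and 4, an alternative chosen after seeing the data, MET was -0.15, LUM 0.080, GABRG1 -0.018, CPLX2 -0.12, CACNB2 0.0096, NDUFA1 -0.015, LMO4 0.060 and EIF1AY 0.076, and with array weights EIF1AY was 0.046. With each animal left out in turn, the difference ranged from -0.15 to 0.0039 for OLIG1, from -0.14 to 0.082 for FOXP2, from -0.14 to 0.046 for EIF1AY, from -0.21 to 0.0053 for KCNA2, from -0.086 to 0.033 for LMO4, from -0.0063 to 0.21 for CPLX2, from -0.0040 to 0.23 for LMO1 and from -0.038 to 0.12 for S100A9. Of the list medians, 328 values moved by less than the spread between animals and 2 did not.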
